A study of Mus musculus with 8 samples.

Results

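The small leucine-rich proteoglycans are secreted matrix proteins with a core of leucine-rich repeats, most of which carry glycosaminoglycan chains. They bind collagen fibrils and set their diameter and spacing, and in soluble form several bind growth factors or innate immune receptors. In skin the family is made mainly by fibroblasts, and decorin is its best known dermal member. The genes described here are the 9 members Bgn, Dcn, Aspn, Lum, Fmod, Ogn, Omd, Prelp and Podn, chosen by name, of 53700 gene identifiers in the count table. These members and the gene lists below were chosen with earlier results of these data known, so counts of them are descriptive. All 9 were found once each, and all 9 passed the filter on low counts.

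The counts come from 8 libraries of ribosome-bound RNA from mouse skin, in 3 groups named by the sample titles: uninjured skin (n = 3), skin 3 days after wounding (n = 2) and skin 7 days after wounding (n = 3). All mice had the genotype AdipoqCreER;R26-NuTRAP and received tamoxifen, and the wounded mice received 4 full-thickness excisional wounds with a 5 mm punch. The protocol attached to all samples, uninjured ones included, gives an age of 7 to 9 weeks at wounding, and no other age is stated for the uninjured mice. AdipoqCreER is an inducible recombinase driven by the adiponectin gene, which is active in adipocytes, and NuTRAP places GFP on the ribosomes of recombined cells and of the cells that descend from them. RNA was recovered with an antibody against GFP, and 20 ng went into each library. Input RNA and mice without the recombinase were not analysed here, and the labels do not say whether libraries of a group came from separate mice, so p-values measure the spread between these libraries.

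The libraries held 6763290 to 9292594 counts at day 7, 5308959 and 9585689 at day 3, and 7883909 to 17751689 in uninjured skin. All 8 adipocyte markers examined were found in every group, with a summed level of 31495 to 55028 CPM (counts scaled to a common library total) at day 7, 38363 and 51602 CPM at day 3, and 35578 to 48953 CPM in uninjured skin. Fabp4, a lipid-binding protein gene, made up more of this sum than any other marker. At day 7 against uninjured skin 6 of the 8 had negative log2 fold changes, with a median of -0.56 beside 0.04 over all genes. They included Cidec (-1.17), Pparg (-0.80), Adipoq (-0.69) and Plin1 (-0.66). edgeR called 0 of the 8, with 3 at an unadjusted p under 0.05, and DESeq2 called 1 lower. Markers of other cells were present too and moved between groups. The 10 fibroblast markers summed to 5934 to 11941 CPM at day 7, against 1625 to 2035 CPM in uninjured skin, and 6 of them rose (edgeR adjusted p under 0.05, as for every gene said to rise or fall below). Col1a1, Col1a2 and Col3a1, which are also among the collagens below, made up most of that sum in every library. Pdgfra, Dpt, Pi16 and Dpp4 were not called. For these marker counts, 5.90% of all tested genes were called higher and 1.77% lower. The 6 luminal epithelial markers summed to 537 to 1178 CPM at day 7, against 11.3 to 26.0 CPM in uninjured skin, and all 6 rose. The 8 skeletal muscle markers summed to 734 to 1319 CPM at day 7, against 4320 to 9652 CPM in uninjured skin, and all 8 fell. Endothelial markers rose in 6 of 8 cases (121 to 459 CPM at day 7, against 72.1 to 161.9 CPM in uninjured skin) and macrophage markers in 4 of 8 (371 to 805 CPM, against 85.9 to 183 CPM). Mural markers rose in 3 of 7 cases (75.3 to 162.2 CPM, against 47.4 to 81.2 CPM) and mast cell markers in 2 of 4 (24.9 to 72.9 CPM, against 8.05 to 14.2 CPM). Of 5 keratinocyte markers edgeR called 0, with 0 at an unadjusted p under 0.05 and 0 by DESeq2. The part of these shifts in the results below was not tested, and in such bulk libraries fewer cells of a type cannot be told apart from less RNA per cell. In a principal component analysis the second component set day 3 replicate 1 (-83.9) apart from the other libraries (-12.0 to 28.2), and day 7 replicate 3 lay nearer to day 3 than to the other day 7 libraries on the first (-5.56, against -103.1 and -73.4). The column names carry a numeric prefix that is shared within each group and differs between groups, so whatever it stands for cannot be told apart from the group.

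Biglycan, asporin, lumican and decorin rose at day 7, and the other 5 members did not pass the test. Of the 9 members, 4 rose and 0 fell at day 7 against uninjured skin (edgeR quasi-likelihood test, Benjamini-Hochberg adjusted p under 0.05 over all 18656 genes tested), where 5.90% of all tested genes were called higher and 1.77% lower. The median log2 fold change was 1.57 over the 9 members and 0.04 over all genes tested. DESeq2 also called 4 members higher and 0 lower, where it called 8.39% of all genes higher and 2.91% lower. In 5 members, these 4 and Omd, all day 7 libraries lay above all uninjured libraries, which 16.7% of all tested genes did, and 0 members lay below, which 13.5% of genes did. At day 3 against uninjured skin edgeR called 0 members, and at day 7 against day 3 it called 1, Aspn. The comparisons of day 7 and of day 3 with uninjured skin share the uninjured libraries.

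**Figure D1:**
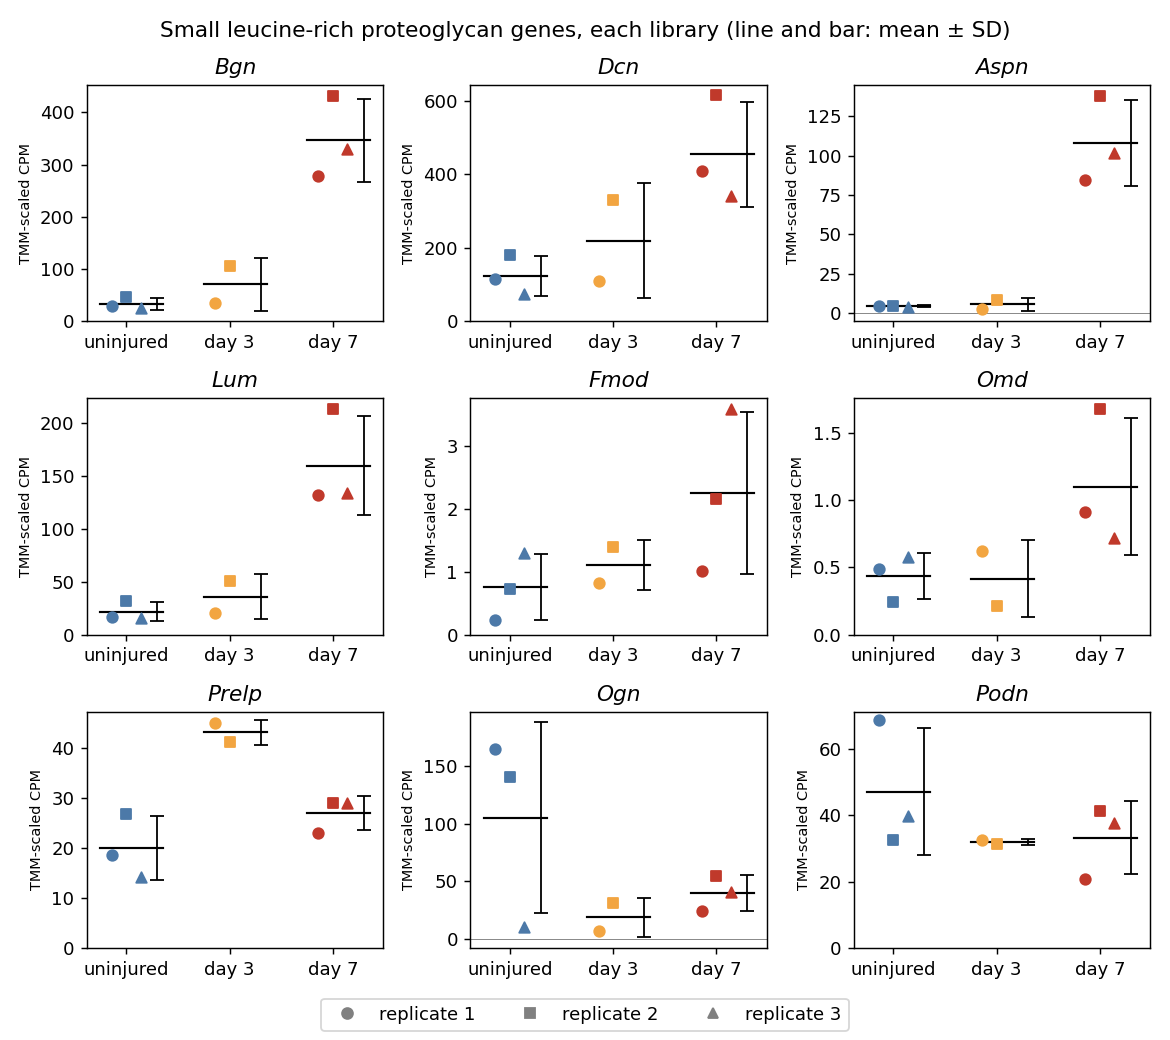
Expression of the 9 genes in each library, as CPM scaled with the TMM (trimmed mean) factors (linear axes, which differ between panels), for uninjured, day 3 and day 7 skin. Symbols are libraries, and lines with bars are the group mean ± SD. All 3 day 7 libraries lie above all uninjured libraries for Bgn, Dcn, Aspn, Lum and Omd, and uninjured replicate 3 lies far below the other uninjured libraries for Ogn.

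Bgn encodes biglycan, a class I member that carries chondroitin or dermatan sulfate chains and, when soluble, signals through Toll-like receptors. Bgn (ENSMUSG00000031375.18) lies on chromosome X from 72527208 to 72539539, on the plus strand, in the deposited table. It stood at 277, 432 and 329 CPM in the day 7 libraries, against 29.0, 45.4 and 24.1 CPM in the uninjured libraries. The groups were far apart, with the lowest day 7 library several times above the highest uninjured one. The log2 fold change was 3.39 ± 0.42 (SE), or 10.5-fold, with an edgeR adjusted p of 0.00259. The day 3 libraries held 34.5 and 106 CPM, and only the second lay above the uninjured range.

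Dcn encodes decorin, the class I member closest to biglycan, which binds type I collagen and holds TGF-beta and other growth factors. Dcn (ENSMUSG00000019929.17) lies on chromosome 10 from 97315471 to 97354005, on the plus strand. It stood at 408, 616 and 342 CPM at day 7, against 115, 182 and 76.0 CPM in uninjured skin. The groups did not overlap, but the gap was smaller than for Bgn, and the log2 fold change was 1.87 ± 0.44 (3.66-fold, edgeR adjusted p = 0.0295). This call was lost without day 7 replicate 1 or 2 or uninjured replicate 1 or 3, with adjusted p-values of 0.0704, 0.109, 0.111 and 0.105. Day 3 libraries held 109 and 331 CPM, the first inside the uninjured range and the second near the lowest day 7 value.

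The ratio of Bgn to Dcn lay higher in every day 7 library than in any uninjured library. In reads per kilobase, which takes account of gene length, the ratio was 0.650, 0.672 and 0.921 in day 7 libraries, against 0.242, 0.239 and 0.304 in uninjured libraries. On the log2 scale it averaged -0.44 ± 0.28 at day 7 and -1.94 ± 0.20 in uninjured skin (SD, n = 3 each), a difference of 1.505 (two-sided exact permutation test, p = 0.1, the smallest that 3 against 3 libraries allow). The day 3 libraries lay at 0.302 and 0.307. Against uninjured skin that is a log2 difference of 0.23 (exact permutation p = 0.3), and day 7 exceeded day 3 by 1.28 (exact permutation p = 0.1, again the smallest possible). With so few libraries the exact test cannot pass 0.05, and both day 3 ratios lay close to that of uninjured replicate 3.

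Aspn encodes asporin, a class I member without the usual chain attachment site, known in cartilage as an inhibitor of TGF-beta. It had the largest fold change of the 9 members. Aspn stood at 84.3, 138 and 102 CPM at day 7, against 4.88, 4.72 and 3.90 CPM in uninjured skin, a log2 fold change of 4.58 ± 0.38 (23.8-fold, edgeR adjusted p = 0.00035). It ranked 160th of 18656 genes by log2 fold change.

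Aspn was low in both day 3 libraries, at 2.88 and 8.55 CPM, or 14 and 80 counts. One of these lies below and the other above the uninjured range, and day 3 did not differ detectably from uninjured skin (log2 0.40 ± 0.40, edgeR adjusted p = 0.689). Aspn was the member that passed at day 7 against day 3, with a log2 fold change of 4.18 ± 0.44 (18.1-fold, edgeR adjusted p = 0.00547), where 0.0643% of all tested genes were called higher. It kept this call in every alternative run, with a highest adjusted p of 0.0346. Its ratio to Bgn per kilobase was 0.788, 0.827 and 0.801 at day 7, 0.216 and 0.209 at day 3, and 0.435, 0.269 and 0.419 in uninjured skin. The day 7 ratios were thus nearly equal among replicates, and both day 3 ratios lay below all uninjured ratios, a description that was not tested.

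**Figure D2:**
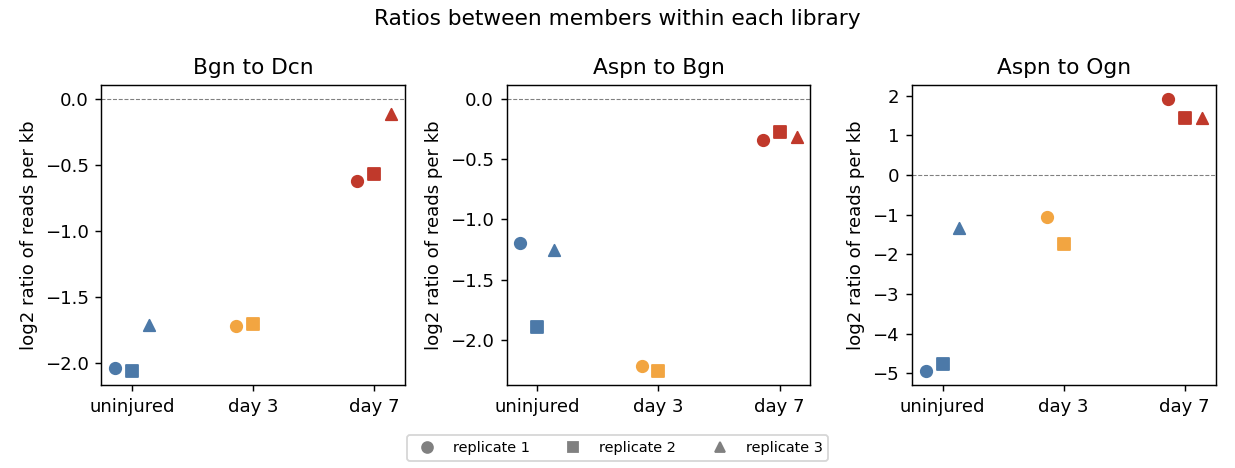
Log2 ratio of reads per kilobase between pairs of members, in each library, for uninjured, day 3 and day 7 skin. Points above 0 mean more reads per kilobase of the first gene. Ratios of Bgn to Dcn and of Aspn to Bgn are highest at day 7, and the ratio of Aspn to Ogn is above 0 in the day 7 libraries and below 0 in the other 5 libraries.

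Among class II members, lumican rose and the others did not pass. Lum encodes lumican, a keratan sulfate carrier that orders collagen fibrils in skin and cornea. Lum (ENSMUSG00000036446.6) lies 47.0 kb after Dcn on chromosome 10, from 97400990 to 97408565 on the same strand. It stood at 132, 213 and 133 CPM at day 7, against 16.7, 31.9 and 16.2 CPM in uninjured skin, with no overlap (log2 2.87 ± 0.40, 7.32-fold, edgeR adjusted p = 0.00416). Its day 3 libraries held 20.8 and 51.0 CPM. The ratio of Lum to Dcn per kilobase was 0.771, 0.825 and 0.929 at day 7, against 0.348, 0.418 and 0.508 in uninjured skin.

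Prelp encodes PRELP, a basic protein that links collagen to basement membrane heparan sulfate. Prelp (ENSMUSG00000041577.6) lies on the minus strand of chromosome 1, from 133838042 to 133849152. It stood highest at day 3, at 45.0 and 41.4 CPM, against 18.7, 26.9 and 14.3 CPM in uninjured skin. Both day 3 libraries lay above all 3 uninjured libraries and all 3 day 7 libraries, which held 23.1, 29.1 and 29.0 CPM. The day 3 change of 1.10 ± 0.29 on the log2 scale (2.15-fold) did not pass in edgeR (adjusted p = 0.19) and passed in DESeq2 (adjusted p = 0.0453), which called 1.86% of all genes higher there. Among all tested genes, 16.9% had both day 3 libraries above every uninjured library. At day 7 its log2 fold change against uninjured skin was 0.43 ± 0.26 (edgeR adjusted p = 0.303). An antisense gene, Gm15851, shares 350 exon bases with Prelp but held 4 counts in all libraries together, against 2056 for Prelp.

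Fmod and Omd were near the limit of detection. Fmod (ENSMUSG00000041559.8) lies 116 kb beyond Prelp on chromosome 1, from 133964992 to 133976015 on the plus strand. Fmod encodes fibromodulin, a collagen-binding regulator of cross-linking, and stood at 1.02, 2.15 and 3.59 CPM at day 7, against 0.24, 0.73 and 1.30 CPM in uninjured skin, or 9 to 30 counts against 2 to 12. These ranges overlap, and the log2 fold change of 1.57 ± 0.72 did not pass (edgeR adjusted p = 0.188, 95% interval -0.003 to 3.15). Omd encodes osteomodulin, a protein known from mineralised tissue, and had 6 to 18 counts at day 7, 2 and 3 at day 3, and 4 in each uninjured library. Its day 7 libraries lay above the uninjured ones (0.91, 1.68 and 0.72 CPM, against 0.49, 0.24 and 0.58 CPM), yet its log2 fold change of 1.39 ± 0.75 did not pass (edgeR adjusted p = 0.257). At this depth smaller changes of these 2 genes would not have been detectable.

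Ogn encodes osteoglycin, also called mimecan, the class III member measured here, which takes part in collagen fibril growth. Its level depended on the library more than on the group. It stood at 24.1, 55.0 and 40.7 CPM at day 7 and at 6.58 and 31.0 CPM at day 3, whereas the uninjured libraries held 165, 141 and 10.7 CPM. Uninjured replicate 3 had 74 Ogn counts in a library of 7883909, while replicate 1 had 1350 in a library of 8653671. These depths are close, and the CPM values differ about as the counts do.

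Ogn passed in no edgeR comparison with the low-count filter. Its log2 fold change was -1.40 ± 0.77 at day 7 (adjusted p = 0.263, 95% interval -3.09 to 0.29) and -2.46 ± 0.94 at day 3 (adjusted p = 0.316). Without uninjured replicate 3 these values were -1.93 (adjusted p = 0.0741) and -2.99 (adjusted p = 0.297). The edgeR fit without the filter called Ogn lower at day 7 (log2 -1.45, adjusted p = 1.54e-05) and at day 3 (log2 -2.48, adjusted p = 3.55e-10), where it called 2.05% and 0.595% of all genes lower, while DESeq2 did not call it (adjusted p = 0.41 and 0.296).

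Marker levels in the uninjured libraries were uneven as well. In uninjured replicates 1, 2 and 3 the summed muscle markers were at 9652, 6244 and 4320 CPM, the fibroblast markers at 1782, 2035 and 1625 CPM, and the 9 tendon and cartilage markers at 69.4, 43.0 and 37.0 CPM. The other members were also lowest in replicate 3 for Bgn, Dcn, Aspn, Lum and Prelp, but by far smaller factors than Ogn. The part of these markers in the level of Ogn was not tested.

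Podn encodes podocan, a class V member first described in kidney and known to restrain smooth muscle cell growth. Podn (ENSMUSG00000028600.16) lies on the minus strand of chromosome 4, from 107871988 to 107953642. It stood at 20.8, 41.3 and 37.5 CPM at day 7, against 68.8, 32.6 and 39.9 CPM in uninjured skin. The groups overlapped, and the log2 fold change of -0.50 ± 0.32 did not pass (edgeR adjusted p = 0.338). Both day 3 libraries, at 32.5 and 31.2 CPM, lay just under the lowest uninjured library, as 17.2% of all tested genes did (log2 -0.56 ± 0.37, edgeR adjusted p = 0.535).

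**Figure D3:**
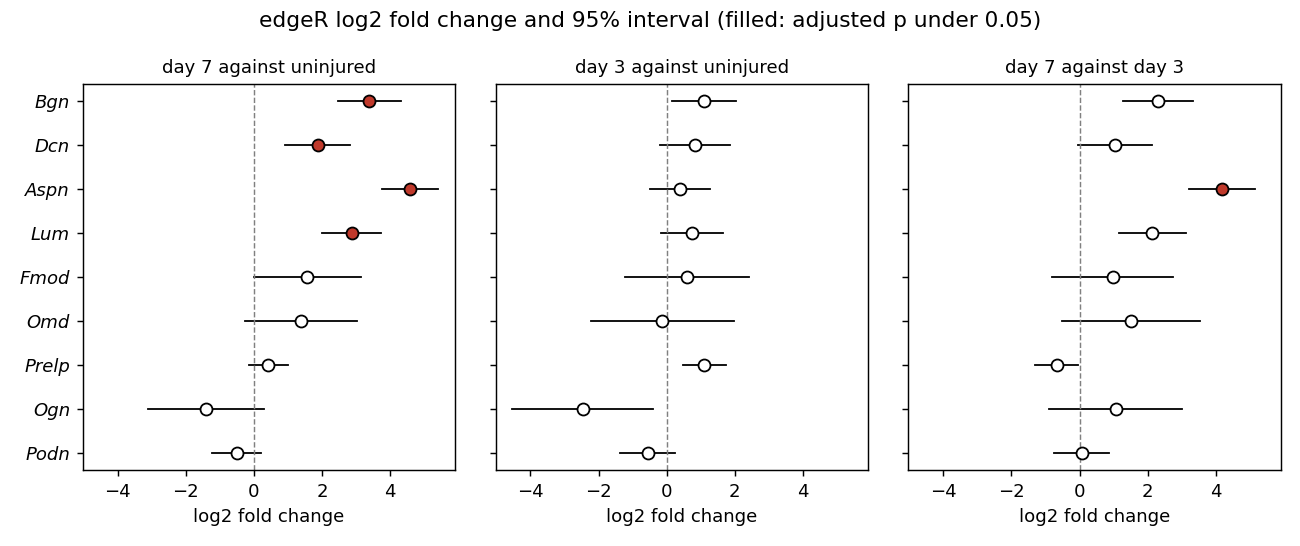
edgeR log2 fold changes of the 9 genes with 95% intervals in the 3 comparisons. Filled points passed at an adjusted p under 0.05. At day 7 against uninjured skin Bgn, Dcn, Aspn and Lum are filled, at day 3 against uninjured skin none is, and at day 7 against day 3 only Aspn is.

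At day 3 the members were split by library. Against uninjured skin 6 of the 9 members had a positive log2 fold change, with a median of 0.59, beside 0.02 over all genes. edgeR called 0 of them and 2 of all 18656 genes (0.0107%). At an unadjusted p under 0.05 there were 3 members, Bgn, Ogn and Prelp, where 13% of all genes passed that mark, and DESeq2 called 1 member, Prelp. Without the filter on low counts edgeR called 2 members higher, Bgn and Prelp, and 1 lower, Ogn, where 1.80% of all genes were called higher. In day 3 replicate 2, 6 members lay above the uninjured range and 2 below it, where 30.7% and 28.7% of all tested genes did. In replicate 1, 2 members lay above and 3 below, where 32.8% and 32.6% of all tested genes did. Bgn had a log2 fold change of 1.68 from replicate 2 alone and 0.05 from replicate 1 alone, and those of Dcn, Aspn and Lum were below 0 from replicate 1 alone.

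The same day 3 libraries differed in marker levels. Replicates 1 and 2 held 1420 and 20.3 CPM of luminal epithelial markers, 1546 and 4595 CPM of fibroblast markers, and 189 and 641 CPM of macrophage markers. Keratinocyte markers stood at 1001 and 4118 CPM, muscle markers at 2778 and 4688 CPM, and tendon and cartilage markers at 17.1 and 71.2 CPM. Endothelial markers were alike, at 227 and 242 CPM, and so were mast cell markers, at 39.7 and 41.6 CPM. The part of these in the split was not tested. The day 3 changes of Bgn (2.14-fold) and Prelp (2.15-fold) did not pass in edgeR. The part of the spread between the 2 libraries in this was not tested.

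At day 7 against day 3, all 3 day 7 libraries lay above both day 3 libraries for Bgn, Dcn, Aspn, Lum and Omd, and below both for Prelp, where 14.2% of all tested genes were separated upward and 11.4% downward. The log2 fold change was 2.29 ± 0.47 for Bgn (edgeR adjusted p = 0.141) and 2.14 ± 0.45 for Lum (adjusted p = 0.15). Neither passed in edgeR, and both passed in DESeq2 (adjusted p = 4.36e-05 and 0.000199), where 0.844% of all genes were called higher. Both also passed without the filter on low counts (0.954% of all genes higher) and with the replicate number as a block (0.509%), and Bgn passed without day 3 replicate 2 (0.0680%). Dcn, at 1.05 ± 0.49, passed in neither (edgeR adjusted p = 0.462, DESeq2 adjusted p = 0.336). Prelp had a log2 fold change of -0.67 ± 0.29 (edgeR adjusted p = 0.428).

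The make-up of the family differed between the groups. Summed over the 9 genes, the level in reads per kilobase and scaled library total (RPKM) was 226, 362 and 244 at day 7, against 119, 124 and 43.3 in uninjured skin, and the day 3 libraries held 57.3 and 130 RPKM. At day 7 Dcn, Lum, Bgn and Aspn led in that order of mean RPKM, at 78.0 ± 24.4, 65.1 ± 18.9, 56.8 ± 12.9 and 45.9 ± 11.6 (SD, n = 3). The ranges of neighbours in that order overlap, so it is not firm, but all 4 stood above Ogn, at 15.6 ± 6.02 RPKM, without overlap. In uninjured skin Ogn led by its mean of 41.1 ± 32.3 RPKM, with Dcn next at 21.3 ± 9.18 RPKM, and their ranges overlapped through the low value of replicate 3. Aspn stood at 1.91 ± 0.223 RPKM there, below Bgn at 5.39 ± 1.83 RPKM and above Fmod at 0.230 ± 0.160 RPKM, without overlap on either side. These orders depend on the deposited gene lengths. The lengths were 5838 bases for Dcn, 6099 for Bgn, 2566 for Ogn, 2448 for Lum and 2354 for Aspn. By mean CPM, without regard to length, Dcn (124.2) stood above Ogn (105.4) in uninjured skin. By the same measure Bgn (346.3) stood above Lum (159.4) at day 7.

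Shares of the family's RPKM depend on the same lengths. In these terms Aspn made up 15.8%, 16.2% and 17.7% at day 7, against 1.74%, 1.62% and 3.82% in uninjured skin. Ogn made up 4.15%, 5.91% and 6.49% at day 7, against 53.9%, 44.3% and 9.61% in uninjured skin. Dcn, the member with the highest share in every wounded library and in uninjured replicate 3, made up 30.9%, 29.1% and 24.0% at day 7, against 16.5%, 25.1% and 30.0% in uninjured skin. In all, the 9 genes took 0.0962% to 0.176% of a library's counts at day 7, against 0.0164% to 0.0428% in uninjured skin.

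**Figure D4:**
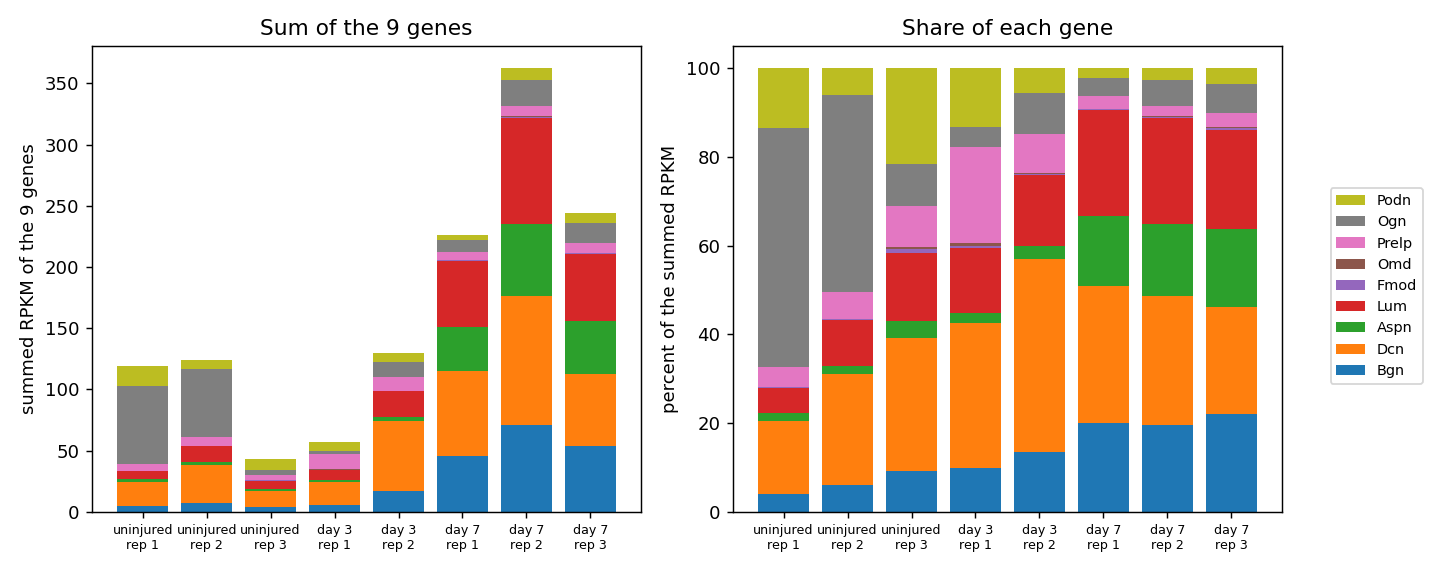
Summed RPKM of the 9 genes in each library (left) and the percent of that sum from each gene (right). The day 7 sums lie between 226 and 362 RPKM. Ogn makes up 53.9% and 44.3% of uninjured replicates 1 and 2, and Bgn, Dcn, Aspn and Lum together make up most of each day 7 library.

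On chromosome 13, 3 neighbouring members had unlike values, whereas the neighbours Dcn and Lum on chromosome 10 both rose at day 7. Prelp and Fmod, 115.8 kb apart on chromosome 1, did not pass, with log2 fold changes of 0.43 and 1.57. Only genes of the family were considered as neighbours. Of its other genes, Optc lies 2.3 kb from Prelp and Kera 34.2 kb after Lum. Aspn (ENSMUSG00000021388.15), Omd (ENSMUSG00000048368.10) and Ogn (ENSMUSG00000021390.7) lie in this order on the plus strand of chromosome 13, from 49697919 to 49721041, from 49735938 to 49746298 and from 49761522 to 49777977 in the deposited table, with gaps of 14.9 and 15.2 kb. The family gene Ecm2 lies 11.7 kb before Aspn. At day 7 against uninjured skin Aspn rose 23.8-fold, Omd and Ogn had log2 fold changes of 1.39 and -1.40 that did not pass, and Ecm2 did not pass. Per kilobase, Aspn exceeded Ogn 3.81-, 2.73- and 2.73-fold in the day 7 libraries, whereas the ratio was 0.032, 0.037 and 0.398 in the uninjured libraries. The gene Cenpp spans this region on the other strand, held 95 counts in all libraries together and shares at most 7 exon bases with a member.

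Promoters are shown for Aspn, which rose, for Ogn nearby, which did not pass, and for Bgn, the member with the second largest rise. They run from 250 bases before to 50 bases after the RefSeq start (build GRCm38.p6), at chr13:49544193-49544492 and chr13:49607765-49608064 for Aspn and Ogn and chrX:73483351-73483650 for Bgn, each on the plus strand. Capitals mark matches, on either strand, to the letters of 5 motifs, which are the TATA box written as TATAAA, the box with letters CCAAT, the GC box written as GGGCGG, the AP-1 site written as TGANTCA and the SMAD box written as CAGAC.
Aspn: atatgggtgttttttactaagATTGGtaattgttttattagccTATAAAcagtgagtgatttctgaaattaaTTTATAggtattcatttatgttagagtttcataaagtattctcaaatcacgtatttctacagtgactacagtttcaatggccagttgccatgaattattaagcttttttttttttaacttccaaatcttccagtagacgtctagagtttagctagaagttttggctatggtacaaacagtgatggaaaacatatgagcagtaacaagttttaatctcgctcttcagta
Ogn: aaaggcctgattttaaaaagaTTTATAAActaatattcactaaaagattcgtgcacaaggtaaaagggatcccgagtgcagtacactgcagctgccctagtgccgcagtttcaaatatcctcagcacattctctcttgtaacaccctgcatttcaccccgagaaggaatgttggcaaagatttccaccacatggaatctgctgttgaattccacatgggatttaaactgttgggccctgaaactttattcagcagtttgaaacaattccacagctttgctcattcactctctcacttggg
Bgn: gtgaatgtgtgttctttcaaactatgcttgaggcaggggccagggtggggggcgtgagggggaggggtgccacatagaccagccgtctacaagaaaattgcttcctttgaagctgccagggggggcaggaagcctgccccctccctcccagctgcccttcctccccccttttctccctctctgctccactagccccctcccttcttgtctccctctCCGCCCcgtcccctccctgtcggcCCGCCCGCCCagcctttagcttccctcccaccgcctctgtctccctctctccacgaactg

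The Aspn window held TATAAA at -207 and its reverse at -178, counted from the start, and the reverse of CCAAT at -229. The Ogn window held TATAAA at -227, overlapping its reverse at -229. The Bgn window held the reverse of GGGCGG at -34, -10 and -6, the last 2 overlapping. Its GC content was 63.7%, against 31.0% for Aspn and 42.3% for Ogn. Of 32851 promoter windows of the same length, 13.6% held TATAAA, 37.4% CCAAT, 35.7% GGGCGG, 7.81% TGANTCA and 49.6% CAGAC in either direction. Among the 7 members with an entry (all but Dcn and Lum), 2, 3, 2, 0 and 3 held these motifs.

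Patterns closest to Bgn and Dcn were sought by the root mean square distance of log2 CPM over the 8 libraries, each gene centred on its own mean. For Bgn the 5 nearest were P4ha3, a collagen prolyl hydroxylase subunit, at 0.26, then Lum at 0.26, the microfibril protein Mfap2 at 0.28, Gpnmb, a membrane glycoprotein of macrophages, at 0.29, and the matricellular protein Ccn3 at 0.30. For Dcn they were the cathepsin Ctsh at 0.15, the collagen chain Col5a2 at 0.17, Tnfrsf13b at 0.22, Fkbp1b at 0.23 and Emp3 at 0.24. Among members, Bgn and Lum were each other's nearest, Aspn was nearest to Bgn (0.73) and Dcn to Lum (0.51). For Ogn the nearest member was Podn at 1.35, farther than for any other member. These distances use CPM scaled for library size, and they carry the group differences that many genes share.

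Genes of the collagens that these proteins bind rose at day 7 in most cases. Of 12 collagen chains 10 rose and 0 fell, with a median log2 fold change of 2.61 beside 0.04 over all genes. For this list and the next, 5.90% of all tested genes were called higher and 1.77% lower. The collagens with the smallest adjusted p are given next. They were Col1a1 (2197 ± 786 CPM at day 7 and 129.7 ± 22.3 CPM in uninjured skin), Col1a2 (2555 ± 798 and 189 ± 47.5 CPM), Col14a1 (39.3 ± 17.2 and 4.67 ± 1.96 CPM) and Col6a3 (222 ± 85.1 and 52.4 ± 4.66 CPM), each n = 3. Of 18 genes of fibril assembly and cross-linking 5 rose and 0 fell. They were P4ha3 (10.1-fold), fibronectin Fn1 (8.07-fold), the lysyl oxidases Loxl1 (4.29-fold) and Loxl2 (8.47-fold) and tenascin X, Tnxb (4.34-fold).

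Proteases that cut the core proteins rose in part. Of 10 tested genes 6 rose and 0 fell, where 5.90% of all tested genes were called higher and 1.77% lower. The 10 include Pcolce and Pcolce2, which are not proteases themselves and were not called. Bmp1, which removes the propeptide of biglycan, stood at 98.6, 123 and 54.9 CPM at day 7, against 10.4, 10.7 and 9.39 CPM in uninjured skin (9.08-fold, edgeR adjusted p = 0.000944). Mmp14, a membrane protease that cuts lumican, rose 8.57-fold and the stromelysin Mmp3 14.0-fold. The collagenase Mmp13, which can cut biglycan and fibromodulin, stood at 9.40, 8.96 and 4.43 CPM at day 7 and had no count in any uninjured or day 3 library.

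Genes of chain synthesis rose in a few cases. Of 22 genes for the linkage region and chondroitin or dermatan chains 3 rose and 0 fell, beside 5.90% of all tested genes called higher, and the median log2 fold change was -0.11. They were Csgalnact1, which starts chondroitin chains (6.18-fold), the dermatan epimerase gene Dsel (2.44-fold) and Pxylp1, a phosphatase of the linkage region (17.1-fold). In day 3 replicates 1 and 2 the level of Pxylp1 was 4.32 and 0.86 CPM, the direction of the luminal epithelial markers there, and their part in it was not tested. Of 8 keratan chain genes 1 rose, the sulfotransferase Chst2 (log2 2.46 ± 0.60, edgeR adjusted p = 0.0341). Among these 8, 5 had an unadjusted edgeR p under 0.05, as 26.7% of all tested genes did. DESeq2 called 2 of them higher, where it called 8.39% of all genes higher. Of 5 genes of sulfate supply edgeR called 0, with 0 at an unadjusted p under 0.05 and 0 by DESeq2.

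Of 13 receptors described for soluble members 1 rose, the lipopolysaccharide co-receptor Cd14 (2.72-fold), which is also a macrophage marker. Here, as for the lists that follow, 5.90% of all tested genes were called higher and 1.77% lower. A count of 1 of 13 is close to that share. Of 14 bound ligands 4 rose, the matricellular genes Ccn2 (6.85-fold) and Ccn4 (13.0-fold), Pdgfb (5.64-fold) and Tnf, which averaged 2.35 ± 1.41 CPM at day 7 and 0.122 ± 0.122 CPM in uninjured skin (SD, n = 3 each). Of 19 proteoglycans outside the family 7 rose and 0 fell, among them lubricin, Prg4 (10.1-fold), syndecan 1, Sdc1 (3.13-fold), agrin, Agrn (3.98-fold), and versican, Vcan (7.31-fold). Of the 9 other family genes 5 were tested and 1 rose. This was Podnl1, a relative of podocan, at 3.06, 4.11 and 1.44 CPM at day 7, against 0, 0.12 and 0.29 CPM in uninjured skin. No gene of these lists passed in edgeR at day 3 against uninjured skin or at day 7 against day 3. At an unadjusted p under 0.05 there were then up to 6 and up to 10 genes in a list, and DESeq2 called up to 3 and up to 7.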

How the data were processed

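The authors deposited raw read counts per gene, 1 column per library, without normalization. Per the file headers, counting used featureCounts 2.0.8. The submitters' processing notes also name STAR 2.7.10b, DESeq2 and mm10. Whether reads were counted by strand, and how multi-mapping reads were handled, is not stated in the labels or headers, so antisense and overlapping genes are uncertain. Symbols were found for 52093 of 53700 identifiers, of which 1491 had the same start in a GRCm38 annotation. Gene coordinates are therefore the table's own, and they differ from those of GRCm38. Bgn starts at 72527208 in the table, whereas its GRCm38 promoter window starts at 73483351. Which build the table follows is unsettled, so positions of genes and of promoters cannot be set side by side. Promoters are from RefSeq on GRCm38.p6.

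The libraries held 5308959 to 17751689 counts. TMM scaling was followed by two-sided quasi-likelihood F tests in edgeR 4.0.16 (R 4.3.3), fitted with a mean for each group over the 8 libraries, which leaves 5 residual degrees of freedom. The 18656 genes kept by the expression filter (minimum count 10) were tested, with Benjamini-Hochberg adjustment at 0.05. Each standard error is the log2 fold change divided by the square root of F. RPKM is the scaled CPM per kilobase of the deposited gene length. Distances between patterns used a pseudocount of 0.5 CPM. The procedure was tested on simulated data.

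All 9 members are named. From each other list, up to 4 genes with the smallest adjusted p are named, or every called gene where at most 5 were called, and for Bgn and Dcn the 5 nearest genes. Alternatives were DESeq2 1.42.0, DESeq2 size factors, upper-quartile scaling, no filter, a fit of only the groups compared, the replicate number as a block, and each library left out. The members and lists were chosen with earlier results of these data known.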

Additional observations from a re-analysis of the deposited data

How the results depend on the processing

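Bgn, Aspn and Lum kept their call at day 7 against uninjured skin in every alternative run, and the count of members called there was 3 to 5. It was 5, with 1 member lower, with no filter on low counts, against 4 with 0 lower. At day 3 the count of members called was 3 with no filter (2 higher, 1 lower) and 1 with DESeq2, against 0. At day 7 against day 3 it was 3 with no filter, 3 with DESeq2 and 3 with the replicate number as a block (replicate block), against 1, and 1 to 2 when a library was left out. The cause was not tested. Deviations from the group mean correlated at -0.089 to 0.218 between same-numbered libraries of different groups, and at -0.233 to 0.213 between differently numbered ones. With so few libraries, and 2 at day 3 whose deviations mirror each other, this cannot decide whether the numbers pair libraries. With a library left out, the log2 fold change at day 3 ranged from -0.20 to 1.41 for Dcn, -0.67 to 0.91 for Aspn, -0.087 to 1.22 for Lum and -0.94 to 0.52 for Omd. Podn at day 7 against day 3 was -0.032 with upper-quartile scaling and -0.12 to 0.28 with a library left out. Omd could not be tested in some of these fits. Over all genes, the counts called higher and lower at day 7 against uninjured skin were 1101 and 330, against 2362 and 794 with no filter, 1857 and 644 with DESeq2, 1563 and 568 with the block, and 238 to 2616 and 76 to 1439 with a library left out. At day 3 they were 2 and 0, against 696 and 230 with no filter, 329 and 100 with DESeq2, 5 and 2 with the block, and 0 to 129 and 0 to 21 with a library left out (the highest without day 3 replicate 2). At day 7 against day 3 they were 12 and 4, against 369 and 203 with no filter, 149 and 86 with DESeq2, 95 and 31 with the block, 4 to 23 and 0 to 12 with a library left out, and 11 and 8 lower with upper-quartile scaling and with DESeq2 size factors. Upper-quartile scaling put the median log2 fold change of all genes at 0.13 at day 3. Depth limits Fmod and Omd, with at most 30 counts in a library.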
